A study of Mus musculus with 16 samples.

Results

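The annexin genes were followed in a muscle of the anterior shin, the tibialis anterior, of 16 mice. The 9 members were chosen by symbol (Anxa1, Anxa2, Anxa3, Anxa4, Anxa5, Anxa6, Anxa7, Anxa8 and Anxa11), after the difference of Anxa4 between knockout and wild-type mice given saline was already known, and all 9 were found among the 29730 genes of the count table. All mice were C57BL/6N males aged 7 weeks, and each of the 4 groups held 4 mice. WT_PBS mice were wild type and received phosphate-buffered saline, and WT_ASO mice were wild type and received ASO1, an antisense oligonucleotide against Dnm2. KO_PBS and KO_ASO mice carried the genotype labelled Bin1mck-/-, a model of recessive centronuclear myopathy, and received saline or ASO1, so that the mice given saline served as controls for the oligonucleotide within each genotype. The sources used here do not state the dose, the injection schedule or the deleted part of Bin1, and no control oligonucleotide was analysed here.

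Annexins are cytosolic proteins that bind acidic membrane phospholipids when calcium is present. In muscle they are best known for gathering at a torn sarcolemma, where annexins A1, A2, A5 and A6 build a cap over the lesion together with dysferlin and the tripartite motif protein MG53. Annexin A2 works as a complex with S100A10, annexin A1 is also a secreted ligand of formyl peptide receptors that limits inflammation, and both are abundant in macrophages and fibroblasts as well as in muscle.

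The promoters of Anxa4, Anxa2 and Anxa8 are printed here because these members had the widest differences between groups. Promoter windows of RefSeq (GRCm38.p6) were matched by symbol for 7 of the 9 members, and the printed bases end before the first annotated exon. RefSeq lists 2 windows for Anxa4, of which the one at the annotated start of the gene was used, and the other, inside the gene, was not searched. Capitals mark matches on either strand to TATAAA for the TATA box, CCAAT for the CCAAT box, GGGCGG for the GC box and TGACTCA for the AP-1 motif. Anxa4 lies on the minus strand (chr6:86793585-86793834), Anxa8 on the plus strand (chr14:34085729-34085978) and Anxa2 on the plus strand (chr9:69453433-69453619).
Anxa4 promoter: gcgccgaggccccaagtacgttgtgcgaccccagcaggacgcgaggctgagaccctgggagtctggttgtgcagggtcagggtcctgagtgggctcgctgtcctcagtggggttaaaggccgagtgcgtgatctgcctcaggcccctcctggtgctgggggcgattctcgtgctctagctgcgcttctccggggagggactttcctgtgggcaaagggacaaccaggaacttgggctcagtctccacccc
Anxa8 promoter: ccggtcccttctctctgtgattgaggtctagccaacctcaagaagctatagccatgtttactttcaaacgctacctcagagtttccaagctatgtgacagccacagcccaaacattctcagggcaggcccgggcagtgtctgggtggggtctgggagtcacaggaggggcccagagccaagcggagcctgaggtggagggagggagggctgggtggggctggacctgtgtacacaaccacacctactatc
Anxa2 promoter: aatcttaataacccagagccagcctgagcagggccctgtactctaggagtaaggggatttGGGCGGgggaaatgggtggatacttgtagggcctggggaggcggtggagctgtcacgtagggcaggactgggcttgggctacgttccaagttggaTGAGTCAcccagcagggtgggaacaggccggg
The 250 bases before the Anxa4 and Anxa8 start sites held none of these motifs and no E-box (CANNTG, counted but not capitalised). The 250 bases before the RefSeq start of Anxa2, of which the last part is exonic and not printed, held 1 TATA box, 3 GC boxes and 1 AP-1 motif, which reads TGAGTCA on the strand shown. Anxa1, whose window begins in an annotated exon and is not printed, held 1 TATA box and none of the other motifs. Of 32536 mouse promoter windows of the same length, 12.3% held the TATA box, 33.8% the CCAAT box, 33% the GC box, 4.45% the AP-1 motif and 66.2% the E-box, and motifs were searched separately, so that matches to different motifs may overlap. A match is a string of letters and was not tested for binding.

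Libraries held 27591900 to 40862854 counts. Levels are given as CPM, a count divided by library size, on TMM-scaled library sizes (TMM, the trimmed mean of M values), and differences as the log2 fold change (log2FC) of an edgeR quasi-likelihood fit to all 16 samples, with its standard error (SE). Differentially expressed genes (DEGs) were those with a Benjamini-Hochberg adjusted P value under 0.05 over the 14960 genes tested, and all 9 annexins passed the filter on low counts. The libraries carried their labels' marks: Bin1 measured 44.9 ± 3.27 CPM in KO_PBS and 35.5 ± 5.24 in KO_ASO against 494.7 ± 40.6 in WT_PBS and 539 ± 58.9 in WT_ASO (SD, n = 4), and Dnm2 fell in both genotypes given ASO1 (log2FC -1.13 in wild type, adjusted P = 0.000396, and -1.34 in knockout, adjusted P = 1.72e-05, edgeR). All 8 muscle fibre markers were present in every group, and their summed level was 146451 to 176040 CPM in WT_PBS, 146128 to 203220 in WT_ASO, 127810 to 132752 in KO_PBS and 130060 to 152874 in KO_ASO, so that KO_PBS lay wholly below both wild-type groups. The summed level of fibroblast markers varied widely among the treated mice. It was 458 to 2022 CPM in WT_ASO and 554 to 1900 in KO_ASO, against 1088 to 1426 in WT_PBS and 1383 to 2393 in KO_PBS. The markers did not spread alike. In WT_ASO, Col1a1 ran from 82.9 to 607 CPM, Col1a2 from 111 to 745, Col3a1 from 118 to 492 and Postn from 6.22 to 41.4. Dcn ran only from 102 to 161 CPM, Dpt from 16.8 to 27.0, Pdgfra from 6.05 to 11.7 and Lum from 9.62 to 15.2. In a whole muscle, more cells of a type and more RNA per cell cannot be told apart.

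In saline-treated mice, 6 annexins were called higher in the knockout and 3 were not called. Because the genes were proposed with this contrast in view, its values are given as a description and without P values. Anxa8, Anxa2, Anxa4, Anxa1, Anxa7 and Anxa5 lay among the DEGs higher in KO_PBS, whereas Anxa6, Anxa11 and Anxa3 were not called. Thus 6 of 9 members were called higher and 0 lower, where 7.43% of all genes tested were called higher and 5.12% lower. The median log2FC of the 9 genes was 0.66 and that of all genes -0.01.

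Anxa4 (chromosome 6, 86736840 to 86793584, minus strand, GRCm38), which encodes a membrane-aggregating annexin best studied in epithelia, had the smallest SE of the 6. It measured 12.6, 12.3, 13.6 and 12.6 CPM in the WT_PBS mice and 36.8, 37.7, 33.2 and 45.8 CPM in the KO_PBS mice. The groups did not overlap, and the lowest knockout lay far above the highest wild type. The log2FC was 1.58 (SE 0.10), a 3-fold difference.

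Anxa2 (chromosome 9, 69453620 to 69491795, plus strand), the partner of S100A10, had the largest gain in CPM of these genes. WT_PBS mice had 32.3, 34.9, 37.0 and 33.1 CPM, and KO_PBS mice had 135, 104, 82.4 and 115 CPM. The 4 wild-type values were close together and the knockout values were spread, but all of the latter lay above all of the former. The log2FC was 1.67 (SE 0.23).

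Anxa8 (chromosome 14, 34085981 to 34100571, plus strand), an annexin known mainly from epithelia, was near the limit of detection in wild-type muscle. It had 14 to 25 counts a library and 0.409, 0.708, 0.571 and 0.627 CPM in WT_PBS, against 128 to 248 counts and 4.14, 7.03, 3.12 and 4.22 CPM in KO_PBS. Its log2FC of 3.0 (SE 0.32) was the widest of the family, on the lowest level of the family. The KO_PBS mouse with 7.03 CPM stood above the other 3.

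Anxa1 (chromosome 19, 20373428 to 20390944, minus strand), the ligand of formyl peptide receptors, measured 13.0, 11.8, 10.5 and 11.3 CPM in WT_PBS and 26.5, 24.6, 19.7 and 27.1 CPM in KO_PBS. The log2FC was 1.07 (SE 0.17), with no overlap. Anxa7 (chromosome 14, 20455260 to 20480133, minus strand), first described as synexin, measured 54.5, 55.6, 54.3 and 51.7 CPM in WT_PBS and 89.3, 85.6, 79.0 and 87.8 CPM in KO_PBS. Both groups were tight and apart, with a log2FC of 0.66 (SE 0.16). Anxa5 (chromosome 3, 36448923 to 36475894, minus strand), whose protein binds phosphatidylserine and serves as a probe of dying cells, ran from 25.9 to 39.4 CPM in WT_PBS and from 43.5 to 59.5 CPM in KO_PBS. Its log2FC was 0.63 (SE 0.17), and the call was lost without WT_PBS replicate 2 (log2FC 0.55), WT_PBS replicate 4 (0.58) or KO_PBS replicate 1 (0.53).

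The other three showed smaller differences. Anxa6 (chromosome 11, 54979108 to 55033445, minus strand), the abundant annexin of muscle, ran from 242 to 276 CPM in WT_PBS and from 286 to 350 CPM in KO_PBS, with a log2FC of 0.23 (SE 0.09). Anxa11 (chromosome 14, 25842156 to 25886804, plus strand), an annexin with a long amino-terminal extension, ran from 71.0 to 95.8 CPM and from 86.5 to 99.6 CPM, with a log2FC of 0.21 (SE 0.13). Anxa3 (chromosome 5, 96793339 to 96845966, plus strand) ran from 19.3 to 21.0 CPM and from 19.4 to 23.6 CPM, with a log2FC of 0.08 (SE 0.13). Scaling by library totals alone raised the median difference of all genes to 0.14 (1942 genes called higher and 260 lower, against 1112 and 766 with TMM). On that scale Anxa6 (log2FC 0.38) and Anxa11 (0.37) were called as well. All KO_PBS values lay above all WT_PBS values for 7 of the 9 members, the exceptions being Anxa3 and Anxa11, where 10.5% of all genes tested had that order.

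**Figure D1:**
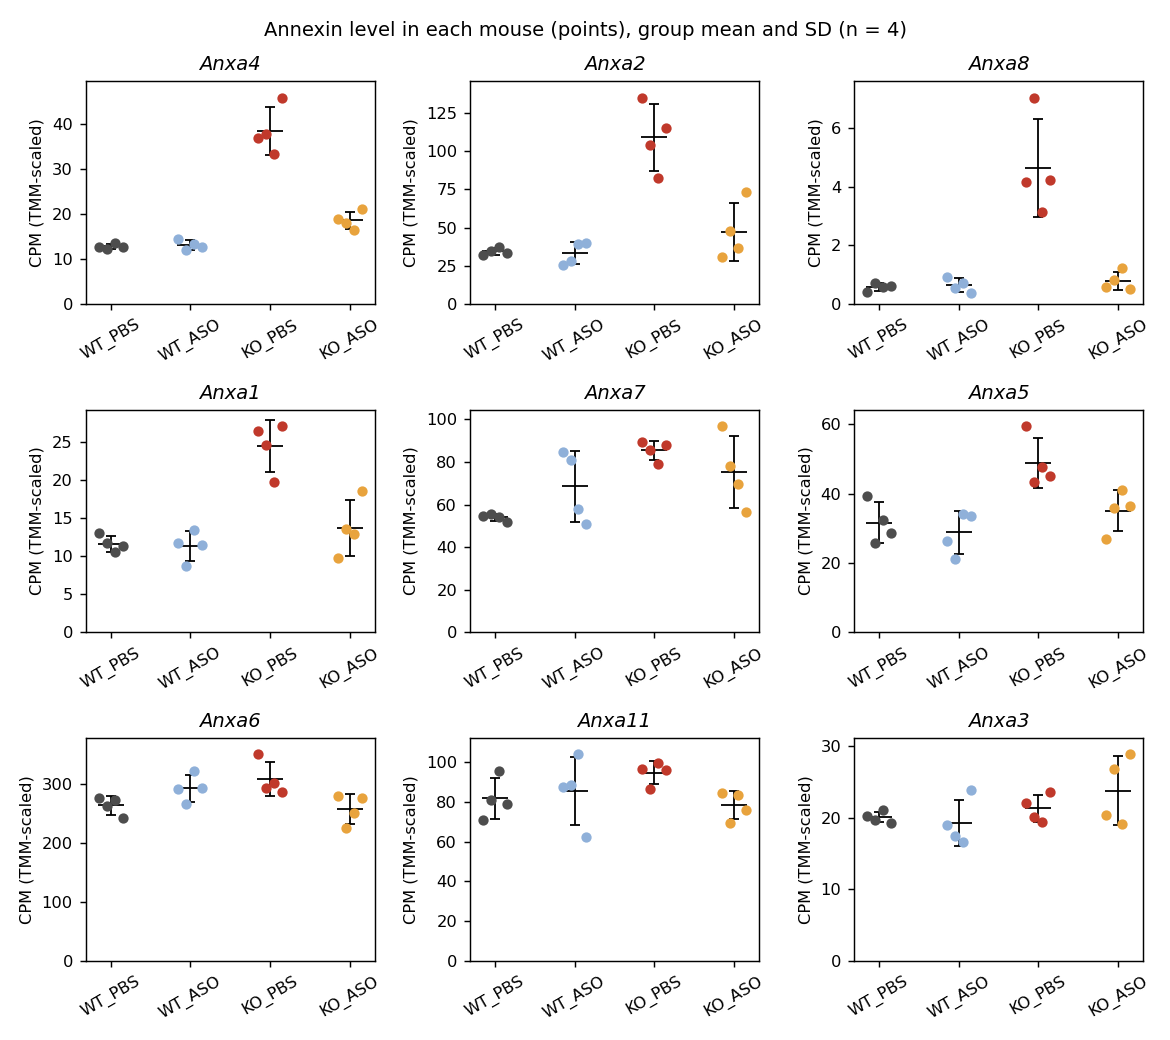
CPM on TMM-scaled library sizes (y axes from 0) of the 9 annexins in the 4 groups (x axes), with 1 point per mouse and the group mean and SD as a bar (n = 4). KO_PBS stands above the other groups for Anxa4, Anxa2, Anxa8 and Anxa1, and the KO_ASO values of Anxa4, from 16.3 to 21.0 CPM, lie between those of KO_PBS and of wild type.

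The next comparison asked whether the oligonucleotide changed annexin expression in knockout muscle. Anxa8, Anxa4, Anxa2 and Anxa1 were lower in KO_ASO than in KO_PBS, by 5.90-fold for Anxa8, 2.07-fold for Anxa4, 2.32-fold for Anxa2 and 1.79-fold for Anxa1. These 4 of 9 were called lower and 0 higher, where 2.83% of all genes tested were called lower and 0.802% higher. The median log2FC was -0.48 for the annexins and 0.01 for all genes. This comparison shares the KO_PBS mice with the contrast in view when the genes were proposed, so a high chance value in those mice would enter both.

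Anxa4 measured 18.8, 18, 16.3 and 21.0 CPM in the KO_ASO mice, all below the KO_PBS values. The fall was -1.05 in log2FC (SE 0.10), and its edgeR adjusted P was 3.19e-05. Anxa8 measured 0.570, 0.831, 1.21 and 0.523 CPM in KO_ASO, on 15 to 35 counts, and no value reached those of KO_PBS. The fall was -2.56 in log2FC (SE 0.31), and its edgeR adjusted P was 0.000406.

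Anxa2 measured 30.7, 47.9, 36.3 and 73.2 CPM in KO_ASO. KO_ASO replicate 4 stood above the other treated knockouts and just below the lowest KO_PBS mouse. The log2FC was -1.21 (SE 0.23, edgeR adjusted P = 0.00897). Anxa1 measured 9.72, 13.6, 12.9 and 18.6 CPM, again with replicate 4 the highest and still below KO_PBS. The log2FC was -0.84 (SE 0.17, edgeR adjusted P = 0.0114). Neither Anxa2 (adjusted P = 0.0559) nor Anxa1 (0.051) was called when only the KO_ASO and KO_PBS mice entered the edgeR fit, which left 2 of the 9 called. Over all alternatives the adjusted P ran from 1.69e-05 to 0.0559 for Anxa2 and from 0.000179 to 0.051 for Anxa1.

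The other five were not called. Anxa5 ran from 26.9 to 41 CPM in KO_ASO (log2FC -0.48, SE 0.17, edgeR adjusted P = 0.132) and Anxa6 from 226 to 280 CPM (log2FC -0.25, SE 0.09, edgeR adjusted P = 0.144). Anxa11 ran from 69.4 to 84.7 CPM (-0.27, SE 0.13, edgeR adjusted P = 0.276). These ranges lay below those of KO_PBS without overlap, although the fit did not call them, and with scaling by library totals Anxa6 was called (log2FC -0.35, edgeR adjusted P = 0.0375, range over alternatives 0.0375 to 0.397). Anxa7 was spread more widely than in KO_PBS, at 96.9, 78.0, 69.5 and 56.4 CPM, with a log2FC of -0.18 (95% interval -0.52 to 0.15). Anxa3 had a log2FC of 0.16 (95% interval -0.12 to 0.44) and was the only member with a positive difference. All KO_ASO values lay below all KO_PBS values for 7 of 9 members, the exceptions being Anxa3 and Anxa7, where 6.34% of all genes tested had that order. For each of these 7 the two-sided exact permutation test of the CPM values gave P = 0.0286, the smallest that 4 against 4 allows. Groups without overlap always give this value, so it repeats that order and is no further evidence.

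**Figure D2:**
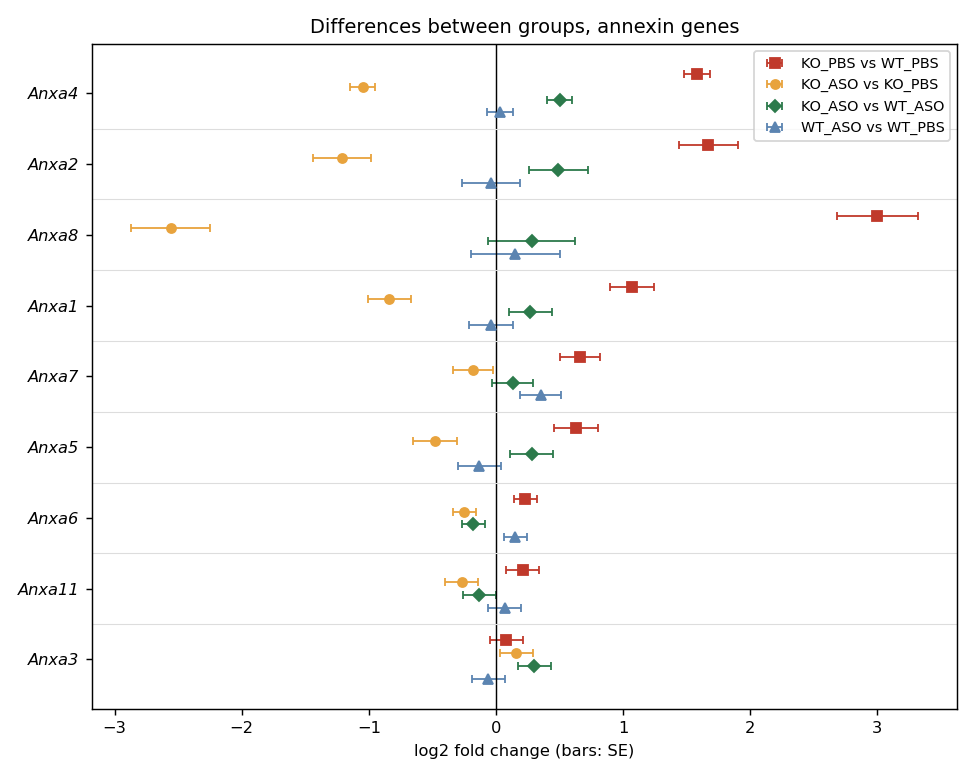
The log2FC (x axis) of each annexin (y axis) in 4 comparisons, with bars of 1 SE from the edgeR fit to 16 samples. The differences of Anxa8 run from 3.0 for KO_PBS vs WT_PBS to -2.56 for KO_ASO vs KO_PBS, and those of WT_ASO vs WT_PBS lie between -0.13 and 0.35 for the 9 genes.

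Treated knockout mice were compared with treated wild-type mice, which share no sample with the saline contrast. The 4 WT_ASO mice had 14.4, 12, 13.3 and 12.6 CPM of Anxa4, and each of the 4 KO_ASO mice lay above them. The log2FC was 0.50 (SE 0.10, 95% interval 0.29 to 0.72), with P = 0.0286 by a two-sided exact permutation test, but the edgeR adjusted P of 0.0745 missed the threshold. No member was called by edgeR in this comparison, in which 0.0735% of all genes tested were called, and 3 members (Anxa4, Anxa2 and Anxa3) had an unadjusted P under 0.05, as did 15.1% of all genes tested. DESeq2, which called 2.84% of its genes, called 1 member, Anxa4 (adjusted P = 0.0022). Over the alternatives the adjusted P of Anxa4 ran from 0.0022 to 0.27, and edgeR called it under 3 of them. These were without KO_ASO replicate 3 (edgeR adjusted P = 0.0465), with replicate number as a block (0.0487) and with scaling by library totals (0.0496). Without overlap above WT_ASO, 1 of 9 members was found, Anxa4, where 2.96% of all genes tested had that order.

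The other members could not be separated between treated genotypes. Anxa2 had 25.6, 28.4, 39.3 and 40.1 CPM in WT_ASO, which overlapped the KO_ASO values (log2FC 0.49, 95% interval 0.01 to 0.98, edgeR adjusted P = 0.322), and without KO_ASO replicate 4 the log2FC was 0.20. Anxa3 had a log2FC of 0.30 (95% interval 0.03 to 0.58, edgeR adjusted P = 0.292). Anxa8 had 0.916, 0.550, 0.729 and 0.389 CPM in WT_ASO, or 14 to 28 counts, which overlapped the KO_ASO values. Its interval, from -0.44 to 1.0, leaves room for a 2-fold difference. Anxa1 (log2FC 0.27, 95% interval -0.08 to 0.63), Anxa5 (0.28, -0.08 to 0.64), Anxa7 (0.13, -0.20 to 0.46), Anxa11 (-0.13, -0.40 to 0.14) and Anxa6 (-0.18, -0.38 to 0.01) had intervals that held 0.

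Against the saline wild type, the treated knockouts gave a like picture for Anxa4, with WT_PBS values shared with the first contrast. No member was called by edgeR, where 0.0401% of all genes tested were called, and 2 members had an unadjusted P under 0.05, as did 8.22% of all genes tested. These were Anxa4 (log2FC 0.53, SE 0.10, edgeR adjusted P = 0.0927) and Anxa7 (0.48, SE 0.16, edgeR adjusted P = 0.444), and the same 2 of 9 lay wholly above WT_PBS, where 2.38% of all genes tested had that order. DESeq2, which called 0.569% of its genes, called 1 member, Anxa4 (adjusted P = 0.00163, range over alternatives 0.00163 to 0.4). Leaving out KO_PBS replicate 4 or KO_ASO replicate 3 also gave a call of Anxa4 by edgeR (adjusted P = 0.0437 and 0.0467). For Anxa8 the log2FC was 0.43 (95% interval -0.29 to 1.16), and 0.15 without KO_ASO replicate 3. For Anxa2 it was 0.45 (-0.03 to 0.94), and 0.16 without KO_ASO replicate 4.

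In wild-type mice no annexin was called between ASO1 and saline by edgeR, where 0.00668% of all genes tested were called, and DESeq2, which called 0.187% of its genes, called 0. The largest difference was that of Anxa7 (log2FC 0.35, SE 0.16, edgeR adjusted P = 0.763), the 1 member with an unadjusted P under 0.05, which 6.45% of all genes tested had. The log2FC of Anxa7 was 0.23 without WT_ASO replicate 1. Its WT_ASO values fell into a pair at 84.9 and 80.8 CPM and a pair at 58.1 and 51.0 CPM, the latter next to the WT_PBS values. The mice of the higher pair, replicates 1 and 2, had fibroblast marker sums of 458 and 884 CPM. Those of the lower pair, replicates 3 and 4, had 1726 and 2022. In KO_ASO, replicates 1 and 2 had 96.9 and 78.0 CPM of Anxa7 and fibroblast sums of 554 and 570. Replicates 3 and 4 had 69.5 and 56.4 CPM and sums of 1743 and 1900. Anxa7 thus fell in the order of the replicate numbers in both treated groups, and fibroblast sum and replicate number cannot be told apart here. The part of either in the Anxa7 values was not tested. Two-sided exact permutation P values of the 9 members in wild type ran from 0.0857 to 0.886. The intervals of Anxa4 (-0.18 to 0.25), Anxa1 (-0.40 to 0.32) and Anxa2 (-0.53 to 0.44) bound what ASO1 could have changed in wild-type muscle, while that of Anxa8 (-0.58 to 0.89) was wider.

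The interaction term is the difference between ASO1 and saline in knockout minus that in wild type. It holds the whole difference between KO_PBS and WT_PBS, the contrast in view when the genes were proposed, with its sign turned, so its values are given as a description and without P values. The term was widest for Anxa8 (log2FC -2.72, SE 0.47), followed by Anxa2 (-1.17, SE 0.32), Anxa4 (-1.08, SE 0.14) and Anxa1 (-0.80, SE 0.24). Anxa8 and Anxa4 were among the genes called, 2 of 9 members, where 0.575% of all genes tested were called. Without KO_ASO replicate 4, the treated knockout with the highest Anxa1 and Anxa2, those 2 members were called as well (log2FC -0.98 for Anxa1 and -1.47 for Anxa2), which made 4, and DESeq2 also called Anxa2. Of the remaining members, Anxa6 had -0.41, Anxa7 -0.53, Anxa5 -0.35, Anxa11 -0.34 and Anxa3 0.22.

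Levels were compared between members per length, as CPM per kilobase of annotated exon (CPM per kb). In WT_PBS Anxa6 led at 89.9 ± 5.31 CPM per kb (SD, n = 4), followed by Anxa11 (19.8 ± 2.5) and Anxa5 (17.8 ± 3.31), whose ranges overlapped. Anxa2 (9.20 ± 0.57) and Anxa7 (9.02 ± 0.27) also overlapped, and Anxa3 (5.51 ± 0.20), Anxa1 (4.00 ± 0.35), Anxa4 (2.75 ± 0.12) and Anxa8 (0.308 ± 0.067) followed in that order without overlap. In KO_PBS the order changed. Anxa2, at 29.2 ± 5.91 CPM per kb, stood beside Anxa5 (27.5 ± 4.07), and Anxa1 (8.42 ± 1.15) and Anxa4 (8.26 ± 1.14) stood beside each other and above Anxa3 (5.84 ± 0.53). The summed level of the 9 genes was 158 ± 8.68 CPM per kb in WT_PBS, 170 ± 13.0 in WT_ASO, 224 ± 19.7 in KO_PBS and 168 ± 10.6 in KO_ASO. Anxa6 made up 56.8% ± 0.95 of that sum in WT_PBS, 58.9% ± 0.751 in WT_ASO, 46.9% ± 1.85 in KO_PBS and 52.5% ± 3.0 in KO_ASO, and the share of Anxa2 was 5.82%, 5.26%, 13.0% and 7.46% in the same groups. The lowest KO_ASO share of Anxa6, 49.3%, lay just above the highest KO_PBS share, 49.0%.

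**Figure D3:**
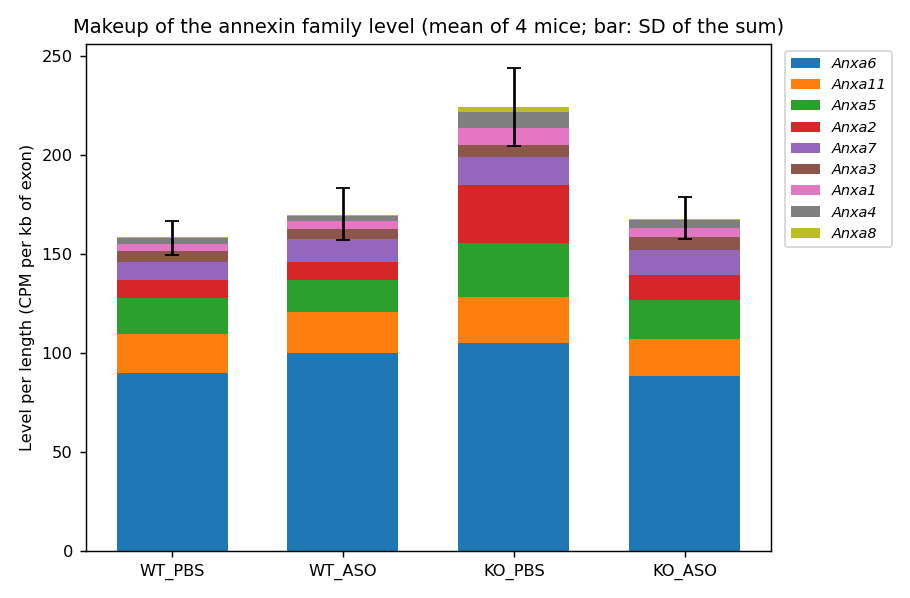
Stacked mean level per length (CPM per kb of exon, y axis from 0) of the 9 annexins in the 4 groups (n = 4 mice each), with the SD of the summed level as a bar. The sum is 224 in KO_PBS and 158 to 170 in the other groups, and the segment of Anxa2 is widest in KO_PBS, at 29.2.

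Other annexin genes were scarce in this muscle. Anxa9 had 3 to 22 counts a library and was called in no comparison, with the added uncertainty of an overlapping gene (Mindy1) on the other strand. Anxa13 had 0 to 5 counts and did not pass the filter, and Anxa10 was not among the genes of the table.

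The genes whose profile over the 16 mice was most like that of 3 members with wide differences were listed by the root mean square (RMS) difference of centred log2 CPM. This measure carries both the differences between groups and those within them, and no test was made. For Anxa2 the nearest were Srgap3 (RMS 0.21), S100a10 (0.23) and Pdk3 (0.24), so that the gene of its protein partner stood second among all other genes tested. Among annexins, Anxa4 ranked 16 and Anxa1 ranked 22 for Anxa2. For Anxa4 the nearest were Nfkb2 (0.20), a subunit gene of the NF-kappa-B family, Klhl40 (0.20), whose product stabilises thin filament proteins in muscle, and Abhd2 (0.21), with Anxa1 at rank 31 and Anxa2 at rank 44. For Anxa8, whose low counts add noise, the nearest were Dusp4 (0.44), a phosphatase gene of the MAP kinase pathway, Cd101 (0.51) and Gm18830 (0.55), with Anxa4 at rank 47. Mean levels in WT_PBS, WT_ASO, KO_PBS and KO_ASO were 0.0128, 0.0532, 0.368 and 0.0548 CPM for Cd101 and 0.013, 0, 0.428 and 0.0508 CPM for Gm18830. Both were near 0 outside KO_PBS and reached the tested genes through that group, which sets their likeness to Anxa8.

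Genes of annexin partners and of membrane repair were read from a list of 14, of which 11 were tested. The list was chosen with earlier results of these data known, so its counts in KO_PBS vs WT_PBS are a description. Fpr1 and Fpr2, the formyl peptide receptors, and Plg, the gene of plasminogen, did not pass the filter, with at most 11 counts in a library. In KO_PBS vs WT_PBS 7 of the 11 were called higher and 0 lower, where the background shares were 7.43% and 5.12%. They were S100a4 (log2FC 2.28), S100a10 (1.30), S100a6 (0.87), Trim72 (0.72), Dysf (0.59), Ahnak (0.50) and Pdcd6 (0.39). In KO_ASO vs KO_PBS 4 were called lower and 0 higher, where 2.83% and 0.802% of all genes were, and the median was -0.46. No partner was called by edgeR in KO_ASO vs WT_ASO, KO_ASO vs WT_PBS or WT_ASO vs WT_PBS or for the interaction, although 1, 3, 1 and 6 of them had an unadjusted P under 0.05, against 15.1%, 8.22%, 6.45% and 12.7% of all genes tested.

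S100a10, the light chain of the annexin A2 complex, measured 16.2, 15.9, 18.1 and 12.9 CPM in WT_PBS and 46.6, 39.7, 32.2 and 37.4 CPM in KO_PBS. The KO_ASO mice had 15.4, 19.2, 19.9 and 36.3 CPM, and the highest was replicate 4, as for Anxa2. The difference from KO_PBS was a log2FC of -0.78 (SE 0.23, edgeR adjusted P = 0.0682), which was not called. S100a6, a calcium-binding protein that binds several annexins, fell from 61.3 ± 12.3 CPM in KO_PBS to 36.8 ± 6.15 in KO_ASO (SD, n = 4; log2FC -0.74, edgeR adjusted P = 0.0235). S100a4, an S100 gene of motile and inflammatory cells, fell from 7.74 ± 2.52 to 2.40 ± 0.412 CPM (SD, n = 4; log2FC -1.69, edgeR adjusted P = 0.00998). S100a11, a partner of annexin A1, had a log2FC of -0.37 on 126 to 315 counts in these libraries and was not called.

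Among the genes of the repair machinery, Ahnak, a very large scaffold protein that binds the annexin A2 complex, fell from 426 ± 51.3 CPM in KO_PBS to 306 ± 22.9 in KO_ASO (SD, n = 4; log2FC -0.48, edgeR adjusted P = 0.0287). Dysf, which encodes dysferlin, fell from 167 ± 7.72 to 125 ± 7.14 CPM (SD, n = 4; log2FC -0.42, edgeR adjusted P = 0.0307). Trim72, which encodes MG53, measured 333 ± 48.0 and 246 ± 12.9 CPM, with a log2FC of -0.44 (edgeR adjusted P = 0.0686) that was not called.

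**Figure D4:**
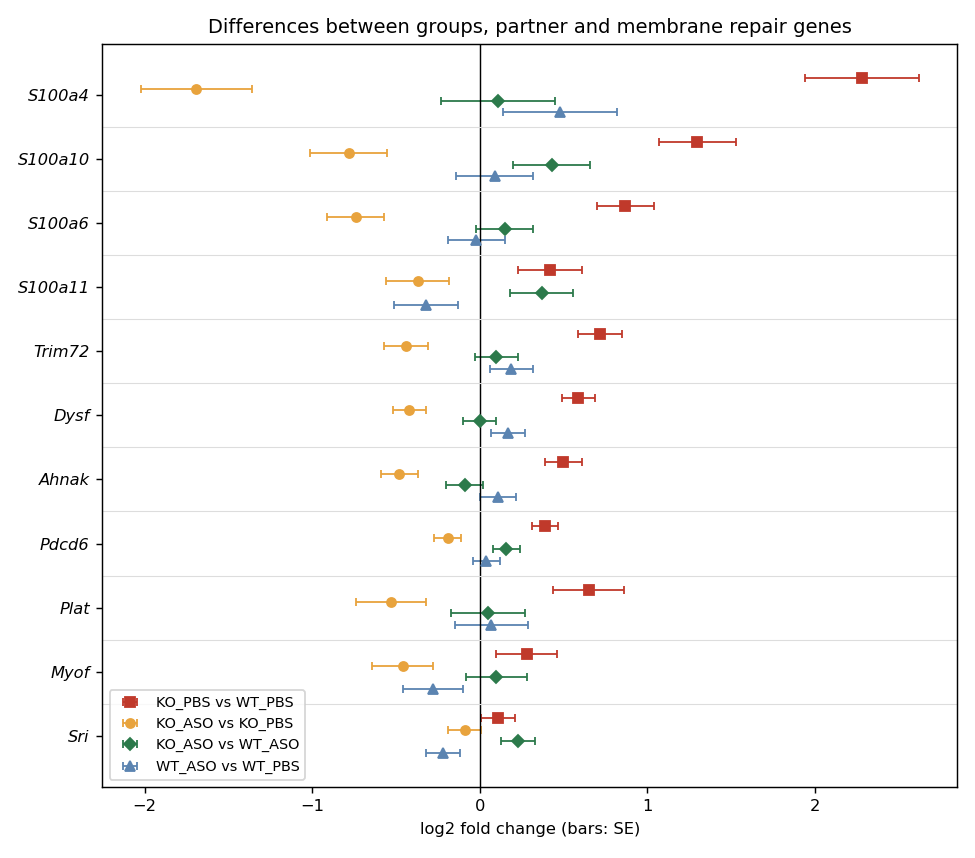
The log2FC (x axis) of the 11 tested partner and membrane repair genes (y axis) in 4 comparisons, with bars of 1 SE from the edgeR fit. S100a4 has the widest differences, 2.28 for KO_PBS vs WT_PBS and -1.69 for KO_ASO vs KO_PBS. Of the 11 differences of KO_ASO vs WT_ASO 10 are positive, with a median of 0.11.

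Macrophage markers moved with these groups, and macrophages are known to express Anxa1, Anxa2 and Anxa5. The summed level of 12 markers, none of which was at 0 throughout a group, was 51.0 to 81.5 CPM in WT_PBS, 52.0 to 115 in WT_ASO, 131 to 387 in KO_PBS and 55.6 to 85.6 in KO_ASO. Of the 12, KO_PBS vs WT_PBS called 11 higher, where 7.43% of all genes tested were, and KO_ASO vs KO_PBS called 8 lower, where 2.83% were. Fibroblast markers had 3 of 8 called higher in KO_PBS (Dcn, Dpt and Pdgfra) and 1 lower in KO_ASO (Dcn), against the same shares. The neutrophil sum was at most 5.33 CPM, and the sum of satellite cell and regeneration markers was 33.7 to 38.2 CPM in WT_PBS, 31.1 to 41.7 in WT_ASO, 51.2 to 71.7 in KO_PBS and 41.6 to 64.6 in KO_ASO. The members of that list moved in opposite ways in KO_PBS vs WT_PBS: Myog (log2FC 2.70) and Myh8 (0.97) were called higher, and the satellite cell genes Pax7 (-1.39) and Myf5 (-1.30) were called lower. Of the fibre markers Des (0.75) was called higher and Tnnt3 (-0.40) lower, and of the smooth muscle and pericyte markers Cspg4 (0.61) was called higher and Myh11 (-0.45) and Tagln (-0.49) lower. The part of these cell types in the annexin differences was not tested.

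Among KO_PBS mice the macrophage sum was 220, 132, 131 and 387 CPM. Lyz2 alone made up 171 CPM of the sum of 387. Every other marker except Cd68 was also highest in that mouse, and Cd68 was highest in the mouse at 220. Anxa1 was 27.1 CPM in the mouse at 387 and 26.5 in the mouse at 220, and 24.6 and 19.7 CPM in the mice at 132 and 131, whose sums were nearly equal. Anxa2 was highest in the mouse at 220, Anxa8 in a mouse at 132, and Anxa4 in the mouse at 387. The mouse with 7.03 CPM of Anxa8 and that with 3.12 CPM were the mice at 132 and 131. Among KO_ASO mice replicate 4 had the highest macrophage sum (85.6 CPM) and the highest Anxa1, Anxa2, Anxa3 and Anxa4, but the lowest Anxa7 (56.4 CPM) and Anxa8 (0.523 CPM). The macrophage sums of the KO_ASO mice lay within the range of the wild-type mice, 51.0 to 115 CPM.

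**Figure D5:**
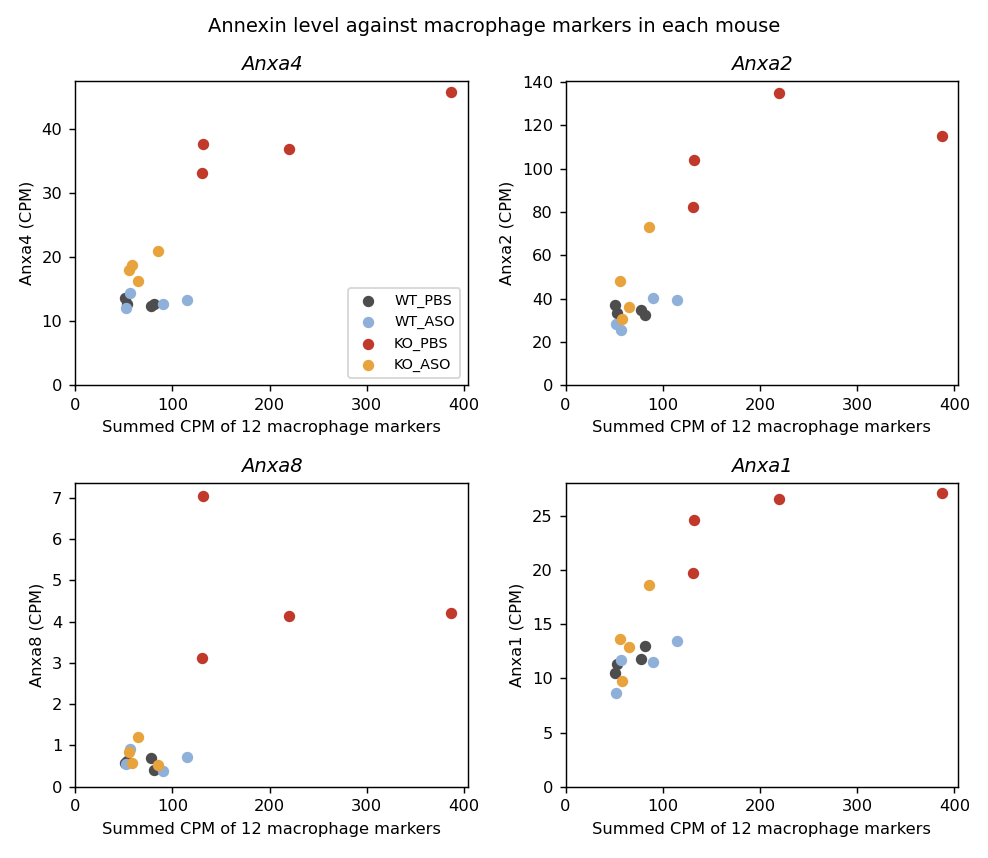
CPM of Anxa4, Anxa2, Anxa8 and Anxa1 (y axes from 0) against the summed CPM of 12 macrophage markers (x axes from 0), with 1 point per mouse and colours for the 4 groups. KO_PBS mice span 131 to 387 on the x axis and hold the highest points of all 4 genes, and the mice of the other groups span 51.0 to 115.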

How the data were processed

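The authors deposited 1 table of raw read counts, with Ensembl genes in rows, samples in columns and no normalization. Per the submitters' notes, the tools were STAR 2.5.3a, HTSeq 0.6.1p1, cutadapt 1.10 and Bowtie2 2.2.8, with no role stated, on GRCm38 (mm10). The Ensembl release and strand setting of the counting were not stated in the sources used here, while the library kit was stranded. All 29730 identifiers matched GENCODE M21, which supplied symbols, coordinates and exon lengths, and none of the 9 annexins overlapped a gene with a mean of at least 10 counts. Genes with near-identical copies can lose reads in counting.

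Counts were filtered with filterByExpr by group (14960 genes kept, 14770 removed), scaled by TMM and fitted with a robust quasi-likelihood model in edgeR 4.0.16 (R 4.3.3) over all 16 samples, 1 mean per group. Biological variation between mice had a common coefficient of 18.7%. Adjustment was by Benjamini-Hochberg over all genes tested in each comparison. DESeq2 1.42.0, other scalings, no filter, the replicate block, compared groups only and the omission of each mouse were alternatives. The log2 CPM used for like profiles had a prior count of 2. Library totals of 27591900 to 40862854 counts set the precision, and genes under about 30 counts a library, such as Anxa8 in wild type, were measured coarsely. Labels do not say that samples are separate mice, and each was taken to be 1 mouse, so that P values measure the spread between these samples.

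The members and gene lists were chosen with earlier results of these data known. Named genes were the 9 annexins, S100a10, S100a11, S100a6 and Ahnak, up to 3 more partner genes with the smallest P in KO_ASO vs KO_PBS, and the 3 genes nearest in profile to each of the 3 annexins with the widest group means. The other partner genes called were named after their values were seen.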

Additional observations from a re-analysis of the deposited data

Results flagged for a closer look

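2 members passed the threshold of the interaction term of edgeR, the difference between ASO1 and saline in knockout minus that in wild type. This term holds the whole difference between KO_PBS and WT_PBS, the contrast in view when the genes were proposed, so it is no independent test of them, and no P value is given. For Anxa8 the term was -2.72 on the log2 scale. All 4 KO_ASO mice lay below all KO_PBS mice, while the WT_ASO and WT_PBS ranges overlapped, on 14 to 28 counts a library. For Anxa4 it was -1.08, again with all 4 KO_ASO mice below all KO_PBS mice and with overlapping wild-type groups. No mouse stood apart from its group by Dixon's test at the 95% level in any of the 36 sets of 4 values, 9 members in 4 groups, where chance alone would mark about 1 in 20.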

How the results depend on the processing

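Over the alternatives no called difference of an annexin changed sign, and the counts of members called in KO_PBS vs WT_PBS and WT_ASO vs WT_PBS stayed within 1.5 times. In KO_ASO vs KO_PBS the count was 4, and 2 with compared groups only. In KO_ASO vs WT_ASO it was 0 by edgeR, and 1 (Anxa4) with DESeq2, with library totals only and with the replicate block, and 0 to 1 when 1 mouse was left out. In KO_ASO vs WT_PBS it was 0, and 1 with DESeq2 and 0 to 1 when 1 mouse was left out. For the interaction it was 2, and 2 to 4 when 1 mouse was left out. Correlations of deviations between same-numbered mice ran from -0.0777 to 0.435 and were over 0.1 for 11 of 24 pairs, below it for the others, so the fit without the block was kept. Against that, 29 of 48 best matches of a mouse in another group had its own number, where 12 would if numbers carried nothing, a hint from the data that same-numbered mice share something. What a number marks is not stated in the labels. With the replicate block Anxa4 in KO_ASO vs WT_ASO had an adjusted P of 0.0487 (edgeR), and no other member changed its call. Counts over all genes moved more: KO_ASO vs WT_ASO had 11 DEGs by edgeR and 402 by DESeq2, 44 with the block, and KO_ASO vs KO_PBS had 544, 300 with compared groups only and 1045 by DESeq2. DESeq2 also gave 371 against 86 for the interaction, 87 against 6 for KO_ASO vs WT_PBS and 35 against 1 for WT_ASO vs WT_PBS. Leaving out 1 mouse moved these counts too, and the background shares with them. KO_ASO vs KO_PBS, with 120 higher and 424 lower, had 22 and 186 without KO_PBS replicate 1. It had 280 and 551 without KO_ASO replicate 4. KO_PBS vs WT_PBS, with 1112 higher and 766 lower, had 683 and 314 without KO_PBS replicate 1, and 1233 and 904 without KO_ASO replicate 4.

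Signs changed only for 9 of 54 differences, none of them called. With library totals only, Anxa6 was 0.03 in KO_ASO vs WT_PBS and Anxa4 -0.02 in WT_ASO vs WT_PBS. The cause was not tested. With 1 mouse left out, Anxa7 in KO_ASO vs WT_ASO ran from -0.01 to 0.25. In KO_ASO vs WT_PBS, Anxa6 ran from -0.07 to 0.02 and Anxa11 from -0.12 to 0.03. In WT_ASO vs WT_PBS, Anxa1 ran from -0.13 to 0.07, Anxa2 from -0.14 to 0.07, Anxa3 from -0.18 to 0.00, Anxa4 from -0.02 to 0.07, Anxa8 from -0.06 to 0.34 and Anxa11 from -0.04 to 0.19.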
